A study of Mus musculus with 6 samples.

Results

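The mitochondrial ribosomal protein genes were followed in mouse heart RNA across treatments with the ginsenoside Rh2 and doxorubicin (Dox). The members were all genes whose symbol is Mrpl or Mrps followed by a number and at most 1 letter, with a mean of at least 10 read counts over the 6 libraries. Of 45777 listed genes, 78 matched, and all 78 passed the count minimum, which 18328 genes passed in all. The lowest member was Mrps12 with a mean of 325 counts and the highest was Mrpl42 with 8874, so no member lay near the minimum. By their known place in the ribosome, 51 encode proteins of the large subunit and 26 of the small subunit. The remaining gene, Mrps36, carries a ribosomal name but encodes a component of the 2-oxoglutarate dehydrogenase complex. Of the ribosomal proteins among them, 47 have a bacterial counterpart and 30 occur in mitochondrial ribosomes without one.

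All hearts came from female BALB/c nude mice (CAnN.Cg-Foxn1nu/Crl) that carried tumours grown from MDA-MB-231, a human triple-negative breast cancer line. The labels give their age as 6 weeks, which by the schedule is not the age at collection. These mice lack a thymus and most T cells but keep innate immune cells. The 6 conditions were Control without either drug, Rh2 at 20 mg/kg, Rh2 at 30 mg/kg, Dox at 2 mg/kg, and each Rh2 dose with the same Dox dose. Treatment began on day 7 after the tumour cells were injected and lasted 3 weeks, with Rh2 given daily and Dox on alternate days to a total of 22 mg/kg. Each condition had 1 library, made from RNA pooled over several hearts, so the spread between mice was not measured. A difference between 2 libraries therefore has no replicate check, and its 95% counting interval covers counting error only.

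Mitochondria translate their own small set of messenger RNAs, all for membrane subunits of the respiratory chain and ATP synthase, on ribosomes of their own. The RNA of these ribosomes comes from mitochondrial DNA, whereas all their proteins are encoded in the nucleus, made in the cytosol and imported. The heart depends on this machinery for its oxidative metabolism, and inherited defects of several of these proteins cause cardiomyopathy in people. Dox, an anthracycline that poisons topoisomerase II, is known for its toxicity to the heart and for its damage to cardiac mitochondria.

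The promoters are shown first because their letters are a property that the choice by name did not use. Windows of 300 bases around the annotated start were taken from RefSeq sequences of build GRCm38.p6, and 69 of the 78 members had a window, of which 3 had more than 1. Both strands were searched for 5 short motifs. CCGGAAG, a core bound by ETS factors such as the GABP complex, was present in 26 of the 69 members (37.7%), in 9.93% of all 27018 genes with a window and in 17.2% of the 12606 tested genes with a window. AAGATGGC, the motif of YY1, was present in 12 members (17.4%), in 3.19% of all genes and in 4.52% of tested genes. GCGCATGC, a motif of the nuclear respiratory factor NRF1, was present in 8 members (11.6%) and in 5.18% of tested genes, and its variant GCGCAGGC in 12 members (17.4%) and in 8.92% of tested genes. Over all genes with a window these shares were 3.05% and 5.02%. GGGCGG, the GC box bound by SP1, was present in 34 members (49.3%), in 38.2% of all genes and in 62.5% of tested genes, so it was less common in the members than in the tested genes. The ETS and SP1 letters can overlap on opposite strands, as can the pair of NRF1 forms, and 14 members held none of the 5 motifs. These counts describe the letters only and were not tested.

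The windows below belong to members named in the expression results, each written 5′ to 3′ along the gene's strand with motif matches in capitals. Mrpl52, among the members with the smallest p-values for Rh2, lies at chr14:54426659-54426958 on the plus strand and holds the ETS letters at 2 places. Mrps18b (chr17:35916391-35916690, minus strand) and Mrpl37 (chr4:107066817-107067116, minus strand) had the smallest p-values for Dox together with Mrpl47, whose window held none of the 5 motifs. The window of Mrps18b has the NRF1 letters at 2 places, the SP1 letters at 2 places and the ETS letters, and that of Mrpl37 has the YY1 letters and the SP1 letters at 2 places. Mrps6 (chr16:92058086-92058385, plus strand) was the member that stood apart in 1 library, and its window shares 286 of its bases with that of Slc5a3. Mrps11 (chr7:78782881-78783180, plus strand) shares 141 bases of its window with that of Mrpl46, which is read in the opposite direction, so this pair of members of different subunits has a common promoter region.
Mrpl52: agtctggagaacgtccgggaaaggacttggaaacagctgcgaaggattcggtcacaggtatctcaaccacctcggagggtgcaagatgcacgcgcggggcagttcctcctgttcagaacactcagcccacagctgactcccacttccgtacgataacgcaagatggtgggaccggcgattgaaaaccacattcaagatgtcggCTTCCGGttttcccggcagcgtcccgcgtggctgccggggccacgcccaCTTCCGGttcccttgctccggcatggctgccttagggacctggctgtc
Mrps18b: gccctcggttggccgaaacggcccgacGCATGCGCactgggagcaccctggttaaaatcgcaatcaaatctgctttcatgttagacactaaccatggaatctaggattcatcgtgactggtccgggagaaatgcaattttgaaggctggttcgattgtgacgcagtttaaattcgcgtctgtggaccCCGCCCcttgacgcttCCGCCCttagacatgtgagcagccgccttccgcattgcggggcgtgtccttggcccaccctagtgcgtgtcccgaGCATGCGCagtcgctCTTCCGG
Mrpl37: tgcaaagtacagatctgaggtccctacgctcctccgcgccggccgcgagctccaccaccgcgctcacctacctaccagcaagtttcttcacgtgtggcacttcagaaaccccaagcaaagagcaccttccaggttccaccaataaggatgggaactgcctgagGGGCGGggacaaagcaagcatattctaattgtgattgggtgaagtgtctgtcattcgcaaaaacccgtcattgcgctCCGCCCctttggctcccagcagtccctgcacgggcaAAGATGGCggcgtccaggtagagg
Mrps6: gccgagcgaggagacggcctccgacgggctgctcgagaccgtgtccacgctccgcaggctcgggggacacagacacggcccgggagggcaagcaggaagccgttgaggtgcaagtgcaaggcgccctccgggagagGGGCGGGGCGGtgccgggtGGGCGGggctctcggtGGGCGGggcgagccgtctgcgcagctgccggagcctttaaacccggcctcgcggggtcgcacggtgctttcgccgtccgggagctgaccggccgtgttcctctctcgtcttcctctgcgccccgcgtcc
Mrps11: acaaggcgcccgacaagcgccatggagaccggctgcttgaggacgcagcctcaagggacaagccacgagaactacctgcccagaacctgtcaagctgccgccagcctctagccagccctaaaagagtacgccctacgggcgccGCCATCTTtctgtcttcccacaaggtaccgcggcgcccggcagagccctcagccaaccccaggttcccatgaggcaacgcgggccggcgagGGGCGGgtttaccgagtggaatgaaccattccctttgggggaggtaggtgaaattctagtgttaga

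Library totals ranged from 86164411 to 90621002 counts. Levels of cell type and tissue markers also differed between the pools. The 7 cardiomyocyte markers summed to a lowest value of 7540930 normalised counts in Rh2-30 mg/kg and a highest of 10172800 in the library with Dox at that dose. Atrial markers summed to 147029 in Rh2-30 mg/kg against 4040 to 35622 in the other libraries. Ucp1, which defines brown fat, had 6010 normalised counts in Rh2-30 mg/kg, at most 12.2 in the other Rh2 libraries, and none in Control and Dox. The 5 erythroid markers were highest in Dox at 928645 and lowest in Rh2-30 mg/kg + Dox at 146596. In such bulk RNA, fewer cells of a type and less RNA per cell cannot be told apart.

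Members were expressed over a wide range when compared per transcript length as FPKM. The median member had a mean FPKM of 10.4 over the 6 libraries, above 74.7% of all tested genes, and 46 of 78 members lay between 5 and 20. Mrpl42, a large subunit protein without a bacterial counterpart, was the highest at 116 FPKM. Mrps21 of the small subunit followed at 90.6 and Mrpl23, which sits at the exit of the peptide tunnel, at 57.7. The lowest members were Mrpl17 at 0.968, Mrpl57 at 1.86 and Mrpl49 at 1.91 FPKM, so that the highest and lowest levels differed 120-fold. This order depends on the transcript length assigned to each gene. By counts Mrpl17 was not the lowest, with 646 to 839 per library, against a mean of 325 for Mrps12. Members of the large subunit had a median FPKM of 11.7 and those of the small subunit 9.31, while members with a bacterial counterpart had 13.1 and the mitochondria-specific ones 7.80. Over the 6 libraries the FPKM of a member had a median coefficient of variation of 11.7%, from 3.26% for Mrps5 to 65.4% for Mrps6. In normalised counts the median was 12.5%, from 5.47% for Mrps5 to 60.1% for Mrps6.

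**Figure D1:**
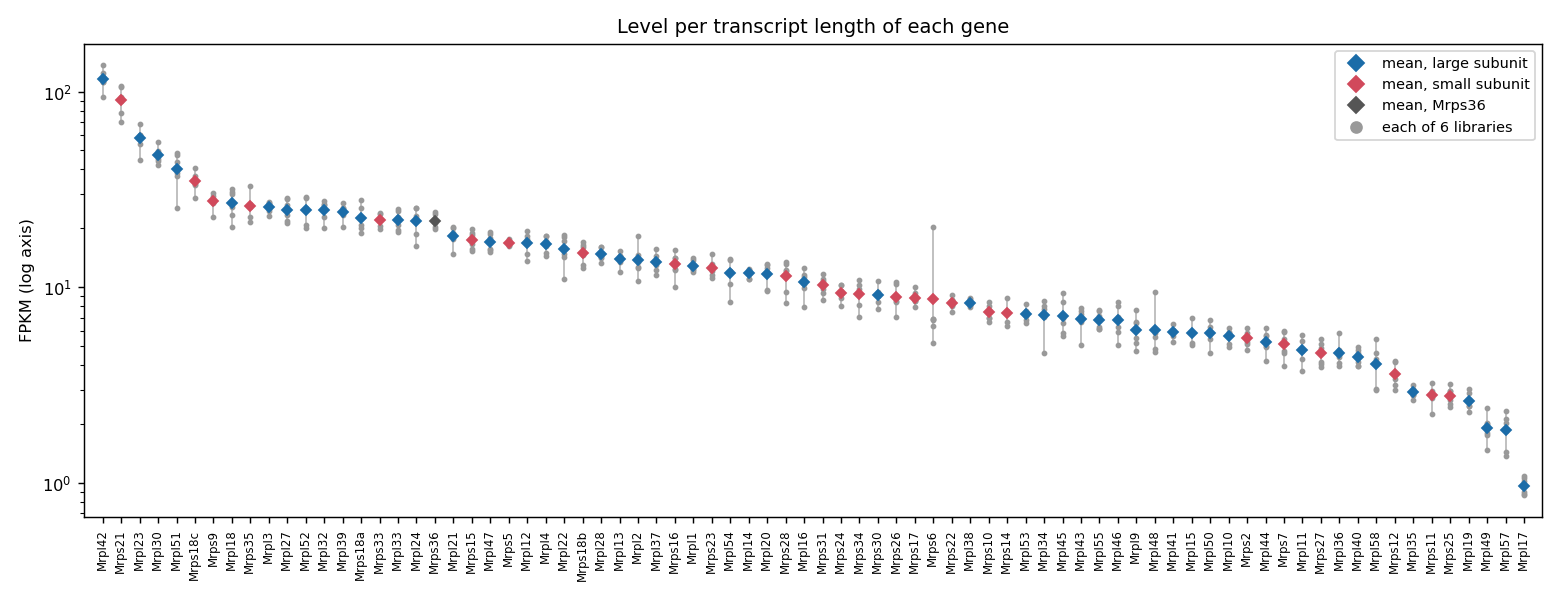
FPKM (log axis) of each of the 78 members, ordered by their mean. Diamonds are means coloured by subunit, and grey points are the 6 libraries. Mrpl42 is at the top with 116 and Mrpl17 at the bottom with 0.968, and Mrps6 has the widest spread, set by 1 library.

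Together the members took 0.155% of all counts in Control (95% exact binomial interval 0.155% to 0.156%), with 0.180% (0.179% to 0.181%) and 0.178% (0.177% to 0.179%) at the lower and higher Rh2 dose. With Dox the share was 0.146% without Rh2 (0.145% to 0.146%), 0.171% at the lower dose (0.170% to 0.172%) and 0.187% at the higher (0.186% to 0.188%). Dox alone had the lowest share and Rh2-30 mg/kg + Dox the highest. The share depends on what the other genes of a library take: after TMM scaling the members summed to 143183 normalised counts in Control, 145617 in Rh2-30 mg/kg and 157874 at the lower Rh2 dose. On that scale Rh2-30 mg/kg lay near Control. By normalised count, 56 of the 78 members had their highest value in Rh2-30 mg/kg + Dox, as had 20.2% of all tested genes. Dox alone was the lowest library for 42 members, Control for 18 and Rh2-30 mg/kg for 16, against 20.1%, 17.2% and 21.1% of all tested genes.

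Against Control, the median member was higher in each library that received Rh2 and lower in Dox, by amounts far below 2-fold. Relative to the short genes among which 54 of the members lie, the median turned to -0.0016 in Rh2-20 mg/kg + Dox and to -0.11 with the higher Rh2 dose alone. In Rh2-20 mg/kg, 68 of 78 members were higher, against 50.1% of all tested genes, with a median log2 ratio of 0.15, and the counting interval lay above 0 for 53 members and below 0 for 3. In Rh2-30 mg/kg, 45 were higher, against 53.5% of all genes, and the median was 0.03, as it was over all tested genes. There the interval lay above 0 for 29 members and below 0 for 16. In Dox, 27 were higher, against 49.1%, with a median of -0.08 and intervals below 0 for 37 members and above 0 for 13. In Rh2-20 mg/kg + Dox, 58 were higher, against 50.6%, with a median of 0.08. Intervals in that library were above 0 for 36 members and below 0 for 13. In Rh2-30 mg/kg + Dox, 73 were higher, against 48.7%, with a median of 0.29. Its intervals lay above 0 for 67 members and below 0 for 2. How many of all tested genes had such intervals was not counted. The 5 comparisons share the Control library. Higher than Control in all 5 were 18 members, against 16.3% of all genes, and lower in all 5 were 3, against 17.1%. These 3, named after their values were seen, were Mrpl14, Mrpl42 and Mrpl53.

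**Figure D2:**
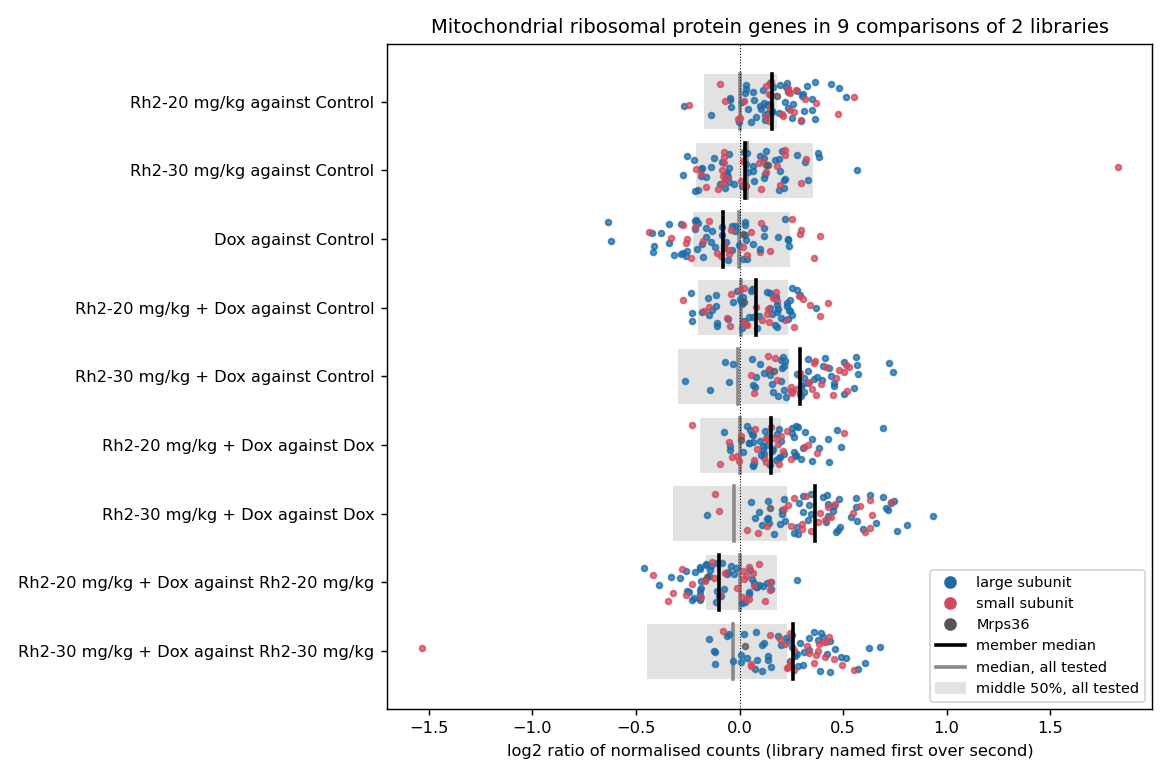
Log2 ratio of normalised counts of each member (points, coloured by subunit) in 9 comparisons of 2 libraries, with the member median (black), the median of all 18328 tested genes (grey line) and their middle 50% (grey band). The member median is at 0.36 in Rh2-30 mg/kg + Dox against Dox and at -0.10 in Rh2-20 mg/kg + Dox against Rh2-20 mg/kg, and Mrps6 is the single point far to the right for Rh2-30 mg/kg.

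A 2-fold difference from Control was reached by 1 member in 1 library, Mrps6 in Rh2-30 mg/kg. Over all tested genes, the share past 2-fold was 6.15% and 10.1% with Rh2 alone at 20 and 30 mg/kg, 9.02% with Dox alone, and 8.75% and 10.9% with Dox at the same Rh2 doses. Mrps16, a small subunit protein conserved from bacteria, was furthest above Control in Rh2-20 mg/kg, at a log2 ratio of 0.55 (counting interval 0.42 to 0.69), and in Rh2-20 mg/kg + Dox, at 0.43. Mrpl45, which helps to hold the ribosome at the inner membrane, was furthest above it in Rh2-30 mg/kg + Dox, at 0.74 (0.65 to 0.83). At Rh2 doses of 0, 20 and 30 mg/kg it had 1646, 2352 and 1720 normalised counts without Dox and 1678, 1930 and 2755 with Dox. Its level thus did not follow the Rh2 dose in the mice without Dox. Mrpl34, a short large subunit protein, was furthest below Control in Dox, at -0.64 (-0.84 to -0.43), where Mrps6 was furthest above it at 0.39, and Mrps34 in Rh2-20 mg/kg + Dox, at -0.27.

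Both subunits showed the same order of libraries. The median log2 ratio to Control of large and small subunit members was 0.15 and 0.18 in Rh2-20 mg/kg, and 0.03 and 0.02 at the higher dose. In Dox it was -0.12 and -0.05. With Dox, it was 0.07 and 0.12 at the lower Rh2 dose and 0.29 and 0.34 at the higher. Members with a bacterial counterpart and mitochondria-specific members also lay close together, at -0.09 and -0.07 in Dox and at 0.29 and 0.30 in Rh2-30 mg/kg + Dox.

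When Rh2 was given with Dox, members were higher than with Dox alone. At 20 mg/kg, 69 of 78 were higher than in Dox, against 50.7% of all tested genes, with a median log2 ratio of 0.15. The counting interval was above 0 for 52 and below 0 for 2. At 30 mg/kg, 75 were higher, against 46.8%, with a median of 0.36. Here the counting interval was above 0 for 68 and below 0 for 2. The share of all genes with such intervals was not counted. All 69 were also higher at 30 mg/kg, against 33.9% of all genes that were higher at both doses, but both comparisons use the single Dox library. None passed 2-fold, against 6.51% and 10.1% of all genes. Mrpl51, a mitochondria-specific large subunit protein, had the largest difference from Dox at 30 mg/kg, at 0.93 (0.88 to 0.99). It had 6943 normalised counts in Control and 4511, 6336 and 8607 with Dox at Rh2 doses of 0, 20 and 30 mg/kg. Mrpl34 had 545 in Control and 351, 567 and 567 with Dox, and its ratio to Dox was 0.69 (0.50 to 0.89) at each dose. The 3 members below Dox at 30 mg/kg, named after their values were seen, were Mrpl10, Mrps2 and Mrps6.

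Cell type markers moved in the same comparison. In Rh2-30 mg/kg + Dox, 6 of 7 cardiomyocyte markers were higher than in Dox, with a median log2 ratio of 0.11, whereas 5 of 5 erythroid, 5 of 5 macrophage, 4 of 4 fibroblast and 4 of 4 atrial markers were lower, with medians of -2.65, -0.47, -0.60 and -7.21. At 20 mg/kg, 7 of 7 cardiomyocyte markers were lower than in Dox, with a median of -0.14, and 5 of 5 macrophage markers were higher. Erythroid markers were lower than in Dox at this dose as well, 5 of 5 at -0.94, and 4 proliferation markers had medians of -0.39 at 20 mg/kg (3 lower) and -1.99 at 30 mg/kg (4 lower). The part of these markers in the member differences was not tested. Transcript length also moved with the result: 54 of 78 members lay in the shortest of 4 equal classes of tested genes by the length implied by counts and FPKM. All tested genes of that class had median log2 ratios of 0.09 and 0.06 to Dox at the lower and higher Rh2 dose, and of 0.05 and 0.14 to Control with Rh2 alone, 0 with Dox alone and 0.08 with Dox at either Rh2 dose. Relative to that class the member median was -0.11 in Rh2-30 mg/kg against Control, and 0.06 and 0.31 to Dox at the lower and higher Rh2 dose.

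The 4 libraries with Rh2 were compared with the 2 without it by edgeR's quasi-likelihood test with Dox as a term, two-sided. No member passed an adjusted p of 0.05, and neither did any other gene, a share of 0% of 18328, with 0.567 as the smallest adjusted p of a member. At an unadjusted p under 0.05 were 12 members (15.4%), all higher with Rh2, against 8.74% of all genes. In the same fit 73 of 78 members were higher with Rh2, with a median log2 fold change of 0.20 against 0.01 for all genes. For 28 members all 4 Rh2 libraries lay above both others (35.9%), against 9.87% of all genes, and for 0 members all lay below, against 9.08%. With single libraries left out, the 12 became 1 without Dox, 4 without Rh2-20 mg/kg and 7 without Rh2-30 mg/kg + Dox, where 3.69%, 7.09% and 7.82% of all genes were called. Without Control they were 8, against 5.19%. Scaling by total counts gave 34, against 10.7%, but also moved the median of all genes to 0.08, and leaving out both Rh2-30 mg/kg libraries gave 20, against 13.6%. DESeq2's Wald test also called no member at an adjusted p of 0.05.

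Among the 12, the members with the smallest p-values were Mrpl54, Mrpl52, Mrpl20 and Mrps28. As they were chosen by this same test, the separation of their libraries given below adds no support. Mrpl54, a mitochondria-specific large subunit protein, had 732 normalised counts in Control and 578 in Dox, against 916 and 887 with Rh2 alone at 20 and 30 mg/kg and 801 and 852 at these doses with Dox. Its log2 fold change with Rh2 was 0.41 (SE 0.11, adjusted p = 0.567 by edgeR), and the groups did not overlap. Mrpl52, whose promoter is printed above, had 984 in Control and 1001 in Dox, against 1335, 1281, 1192 and 1237 in the Rh2 libraries in the same order. All 4 Rh2 libraries were thus higher, at a log2 fold change of 0.34 (SE 0.09). Mrpl20, whose bacterial counterpart binds early in large subunit assembly, had 1298 in Control and 1280 in Dox, against 1604, 1613, 1538 and 1753. Its log2 fold change was 0.34 (SE 0.09), and both libraries without Rh2 lay close together. Mrps28 of the small subunit had 818 in Control and 703 in Dox, against 986, 1020, 999 and 1168, a log2 fold change of 0.46 (SE 0.13). Also among the 12 were Mrpl57 at 0.49, Mrpl18 at 0.37, Mrps21 at 0.37, Mrpl58 at 0.30 and Mrpl12 at 0.29. Mrpl58 is a peptidyl-tRNA hydrolase that rescues stalled ribosomes and is built into the large subunit.

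**Figure D3:**
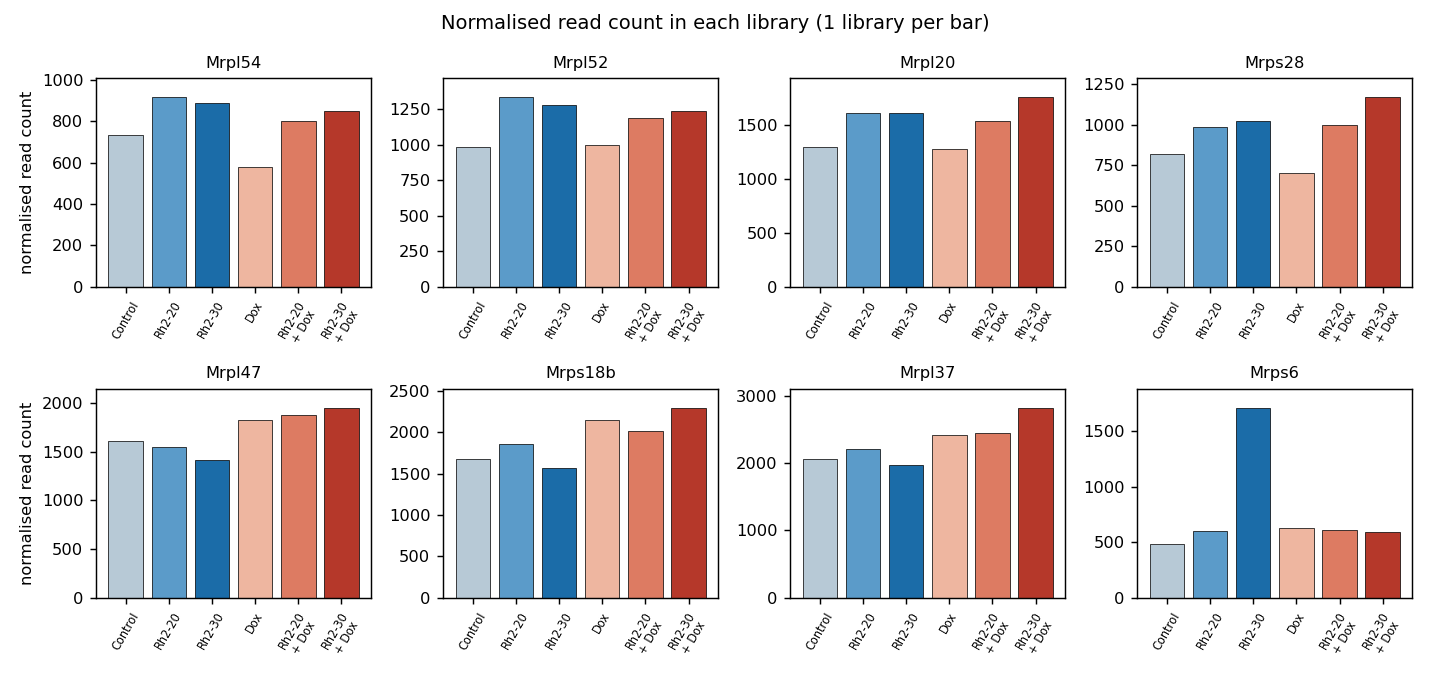
Normalised read count of 8 members, 1 bar per library (1 library per condition, so no error bar). Apart from Mrps6, the members were chosen by their p-values in these same libraries. In the upper row all 4 Rh2 libraries are above Control and Dox. In the lower row Mrpl47, Mrps18b and Mrpl37 are higher in all 3 libraries with Dox, and Mrps6 is high in Rh2-30 mg/kg alone.

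The Rh2 difference can also be read within each state of Dox. At 20 mg/kg, 60 members were higher both without and with Dox, against 30.7% of all genes, and these 2 pairs share no library. At 30 mg/kg, 42 were higher in both pairs, against 25.2%. Without Dox the median at 30 mg/kg was 0.03, and with Dox it was 0.36. The difference between these medians was not tested, as each comes from 1 pair of libraries.

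Members with and without a promoter motif were set side by side. The median log2 fold change with Rh2 was 0.23 for the 26 members with the ETS letters and 0.16 for the 43 without them. For the NRF1 motif it was 0.17 for the 8 members with it and 0.20 for the 61 without, whereas for its variant it was 0.27 for 12 and 0.18 for 57. It was 0.20 for members with and without the YY1 letters alike, and 0.19 for the 34 with the SP1 letters against 0.21 for the 35 without. These differences were not tested.

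For Dox, the 3 libraries with it were compared with the 3 without it in edgeR's quasi-likelihood test. No member passed an adjusted p of 0.05, against 5 of all genes (0.0273%), with 0.349 as the smallest for a member. At an unadjusted p under 0.05 were 3 members, against 10.1% of all genes, and all 3 were higher with Dox. The values did not overlap for 5 members that were higher with Dox, against 7.85% of all genes, and for 1 that was lower, against 9.16%. The 5 were Mrpl37, Mrpl47, Mrps5, Mrps11 and Mrps18b, and the 1 was Mrpl42, named after their values were seen. In the same fit as for single genes, 47 of 78 members were higher with Dox, against 47.2% of all genes, at a median of 0.02 against -0.01. With total counts 36 were higher, against 39%, and the member median turned to -0.03. Without the Rh2-30 mg/kg + Dox library 25 were higher, against 46.6%, and 8 had an unadjusted p under 0.05, of which 3 were higher and 5 lower with Dox, against 9.21% of all genes. Without both Rh2-30 mg/kg libraries 24 were higher, against 50.9%.

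The 3 members with an unadjusted p under 0.05 for Dox were a smaller share (3.85%) than among all genes (10.1%). They went against the median member in the Dox library. Mrpl47, the counterpart of a bacterial protein at the tunnel exit, had 1607, 1554 and 1419 normalised counts without Dox, at Rh2 doses of 0, 20 and 30 mg/kg. With Dox it had 1827, 1883 and 1950 in the same order of Rh2 dose, so all 3 were higher, at a log2 fold change of 0.31 (SE 0.09, adjusted p = 0.349 by edgeR). Mrps18b had 1680, 1853 and 1563 without Dox and 2155, 2016 and 2293 with it, a log2 fold change of 0.34 (SE 0.10). Mrpl37, specific to mitochondria, had 2059, 2213 and 1979 without Dox and 2427, 2458 and 2824 with it, at 0.30 (SE 0.10). In each of these members the lowest Dox library was above the highest library without Dox. As they were chosen by the p-value of this same comparison, that separation adds no support.

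Within the 3 pairs that differ in Dox at the same Rh2 dose and share no library, the direction was not constant. The member median was -0.08 for Dox against Control, -0.10 for Rh2-20 mg/kg + Dox against Rh2-20 mg/kg and 0.26 for Rh2-30 mg/kg + Dox against Rh2-30 mg/kg. Their mean was 0.03 ± 0.20 (SD, n = 3 pairs), so the spread between pairs was larger than the mean. In the second pair 28 members were higher, against 49.9% of all genes, and in the third pair 69, against 46.9%. The commonest pattern was lower, lower and higher, in 36 members, and its share over all tested genes was not counted. Lower in all 3 pairs were 2 members, Mrpl42 and Mrpl54, against 17.6% of all genes, and higher in all 3 were 11, against 15.9%. Scaling by total counts made the lower ones 12, and FPKM values made them 10. The share of all genes lower in all 3 pairs was not counted under these settings. Past 2-fold were 0 members in the second pair, against 6.96% of all genes, and 1 in the third, against 14.5%, which was again Mrps6.

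In the third pair, 7 of 7 cardiomyocyte markers were higher with Dox, at a median log2 ratio of 0.53, while 4 of 4 atrial, 5 of 5 brown fat, 5 of 5 macrophage and 4 of 4 fibroblast markers were lower, at -9.71, -8.65, -1.40 and -1.18. In the pair at 20 mg/kg, 5 of 7 cardiomyocyte markers were lower, at -0.02. Erythroid markers moved opposite to the member median in all 3 pairs, with 5 of 5 higher at 1.55 for Dox against Control, 5 of 5 higher at 1.18 in the pair at 20 mg/kg and 5 of 5 lower in the third at -0.93. All 4 proliferation markers were lower with Dox in each pair, at -1.25, -1.98 and -3.98. The part of tissue content in these member differences was not tested.

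Mrps6, the counterpart of bacterial protein S6, had 482, 600 and 1710 normalised counts without Dox at Rh2 doses of 0, 20 and 30 mg/kg, and 632, 610 and 590 with Dox. The Rh2-30 mg/kg library stood alone, at a log2 ratio to Control of 1.83 (1.68 to 1.98), and the other 5 lay between 482 and 632, with Control the lowest and Dox the highest of them. In the annotation of build GRCm38.p6, the gene spans chr16:92058336-92112227 and lies over Slc5a3 at chr16:92058322-92087473, which encodes the myo-inositol transporter. Slc5a3 had 2437, 2547, 7616, 4113, 2863 and 2295 normalised counts in the same order, and was also highest in Rh2-30 mg/kg. How reads of the shared span were assigned between these genes was not tested. Ucp1 and the atrial markers were highest in the same library. In all, 25 members overlap another listed gene, 20 of them a protein-coding one and 21 of them a gene with a mean of at least 10 counts. For these members, too, the assignment of reads in the shared span was not tested.

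**Figure D4:**
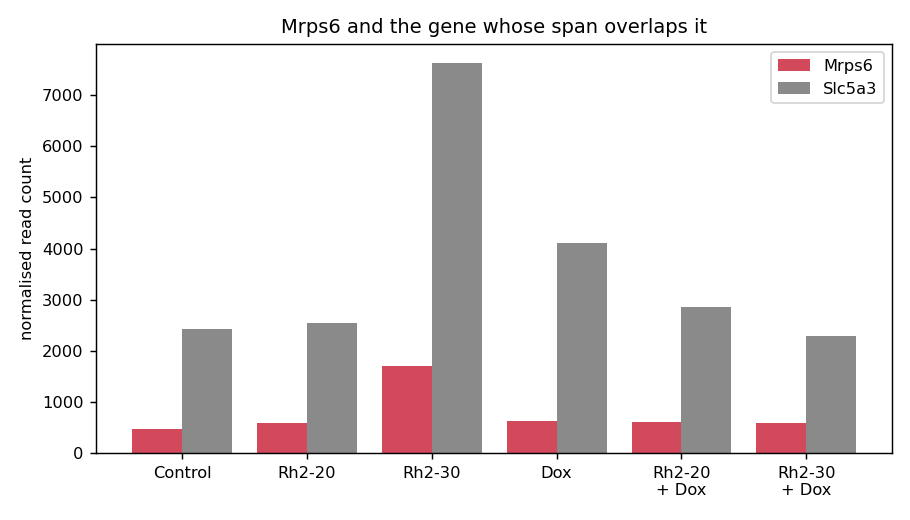
Normalised read count of Mrps6 and of Slc5a3, the gene whose span overlaps it, in each of the 6 libraries (1 library per condition). Both have their highest bar in Rh2-30 mg/kg, at 1710 and 7616.

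Relative to Control, a few members ran against the median member in the libraries with Rh2. Mrpl42, the most abundant member, had 9857, 8946 and 9688 normalised counts without Dox at Rh2 doses of 0, 20 and 30 mg/kg, and 7367, 8402 and 8924 with Dox. It was highest in Control and lowest in Dox, and all 3 Dox libraries lay below all 3 others. That separation was narrow: the highest value with Dox, 8924 at the 30 mg/kg dose of Rh2, was just under the lowest without it, 8946 at 20 mg/kg. Whether this gap exceeds counting error was not tested. Its log2 fold change with Dox was -0.21 (SE 0.10, adjusted p = 0.544 by edgeR). Mrpl53, also of the large subunit, was the member furthest below Control with Rh2-20 mg/kg (-0.27), Rh2-30 mg/kg (-0.27) and Rh2-30 mg/kg + Dox (-0.26). Its counts were 605 in Control and 478 to 534 in the other 5 libraries, which lay close together, so that the Control library alone sets these ratios.

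Members picked for their known roles also showed differences below 2-fold. Mrpl12, which forms the stalk that recruits translation factors and also binds the mitochondrial RNA polymerase, had 1722 in Control, 1564 in Dox, and 1886 and 1877 with Rh2 alone and 2038 and 2273 with both drugs. Its 4 Rh2 libraries lay above the others, at a log2 fold change of 0.29 (SE 0.11, adjusted p = 0.568 by edgeR). Mrps12, part of the decoding centre, had 273 in Control, 293 in Dox and 318 to 380 with Rh2, at 0.29 (SE 0.16). Mrpl3, Mrpl44 and Mrps22, whose inherited defects cause cardiomyopathy in people, had log2 ratios of 0.02, -0.29 and -0.15 in Dox against Control. In Rh2-30 mg/kg + Dox against Dox they had 0.17 (0.11 to 0.23), 0.60 (0.45 to 0.74) and 0.32 (0.20 to 0.44).

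The 3 proteins Mrps18a, Mrps18b and Mrps18c descend from 1 bacterial protein and are held in different ribosomal positions, Mrps18a in the large subunit. Against Control, Dox gave log2 ratios of 0.12 for Mrps18a, 0.36 for Mrps18b and -0.25 for Mrps18c, so the family did not move together. The counting intervals of these 3 ratios did not overlap. In Rh2-30 mg/kg + Dox all 3 were above Control, at 0.57, 0.45 and 0.29. Mrps30, a large subunit protein despite its name, had 1467 in Control, 1570 in Dox and 1635 to 1843 with Rh2. Mrps36, which is no ribosomal protein, varied little, from 1695 in Control to 1920 in Rh2-20 mg/kg. It was still among the 28 members whose 4 Rh2 libraries all lay above Control and Dox. Mrpl46 and Mrps11, which share a promoter region, differed in Dox, where Mrpl46 was below Control at -0.26 (-0.42 to -0.10) and Mrps11 above it at 0.30 (0.06 to 0.54).

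Other genes of mitochondrial translation gave a partly like picture. The 5 ribosomal proteins with other names had a median log2 ratio of -0.20 in Dox against Control and of 0.42 in Rh2-30 mg/kg + Dox against Dox, where 5 of 5 were higher. Aurkaip1 was the clearest, with 1581 in Control, 1334 in Dox, and 2061, 2016, 1785 and 1907 in the Rh2 libraries. Of the 5, 2 had an unadjusted p under 0.05 for Rh2 and 0 for Dox, with none past adjustment. The 26 assembly factors did not follow the members in Dox, where 20 were higher than Control at a median of 0.11, and 0 had an unadjusted p under 0.05 in either test. Of 15 translation factors, 14 were higher in Rh2-30 mg/kg + Dox than in Dox, at a median of 0.30, and 12 were lower than Control in Rh2-30 mg/kg, at -0.27. Lrpprc, which stabilises mitochondrial messenger RNAs, had the largest mean log2 ratio over the Dox pairs among them, 0.24. Its ratios at Rh2 doses of 0, 20 and 30 mg/kg were 0.10, -0.10 and 0.70 (adjusted p = 0.654 for Dox by edgeR). Of 20 mitochondrial aminoacyl-tRNA synthetase genes, 17 were higher in Rh2-30 mg/kg + Dox than in Dox, at 0.14.

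The 80 nuclear genes of respiratory chain subunits, the partners of what mitochondrial ribosomes make, had medians near those of the members except in the 3 comparisons of Rh2-30 mg/kg + Dox. Against Control these were 0.19 and -0.05 with Rh2 alone at 20 and 30 mg/kg, -0.10 with Dox alone, and 0.07 and 0.45 with Dox at the same Rh2 doses. In those 3 comparisons they were higher than the members, at 0.45 against 0.29 relative to Control, 0.53 against 0.36 relative to Dox and 0.52 against 0.26 relative to Rh2-30 mg/kg. Against Control in the order above, the 76 cytosolic ribosomal protein genes had 0.05, 0.33, 0.04, 0.21 and 0.14, and were highest relative to Control in Rh2-30 mg/kg, where the members had 0.03. In Rh2-30 mg/kg + Dox against Rh2-30 mg/kg, 70 of 76 cytosolic genes were lower, at -0.21, whereas 69 of 78 members were higher. The 13 protein genes of mitochondrial DNA, a list added after the data were seen, were lower than Control in all 4 Rh2 libraries for 13 of 13, at -0.41 and -0.79 with Rh2 alone at 20 and 30 mg/kg and -0.44 and -0.36 with Dox at these doses. In Dox alone they were at -0.04. All 13 had an unadjusted p under 0.05 for Rh2 by edgeR, against 8.74% of all genes, and 0 passed adjustment. The member medians in the same 4 Rh2 libraries were 0.15, 0.03, 0.08 and 0.29. The 2 ribosomal RNAs of mitochondrial DNA were also below Control, at -0.22 and -0.61 with Rh2 alone at 20 and 30 mg/kg. They were at -0.29 with Dox alone, and at -0.30 and -0.29 with Dox at the same Rh2 doses. Of these 2, 0 had an unadjusted p under 0.05 for Rh2.

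**Figure D5:**
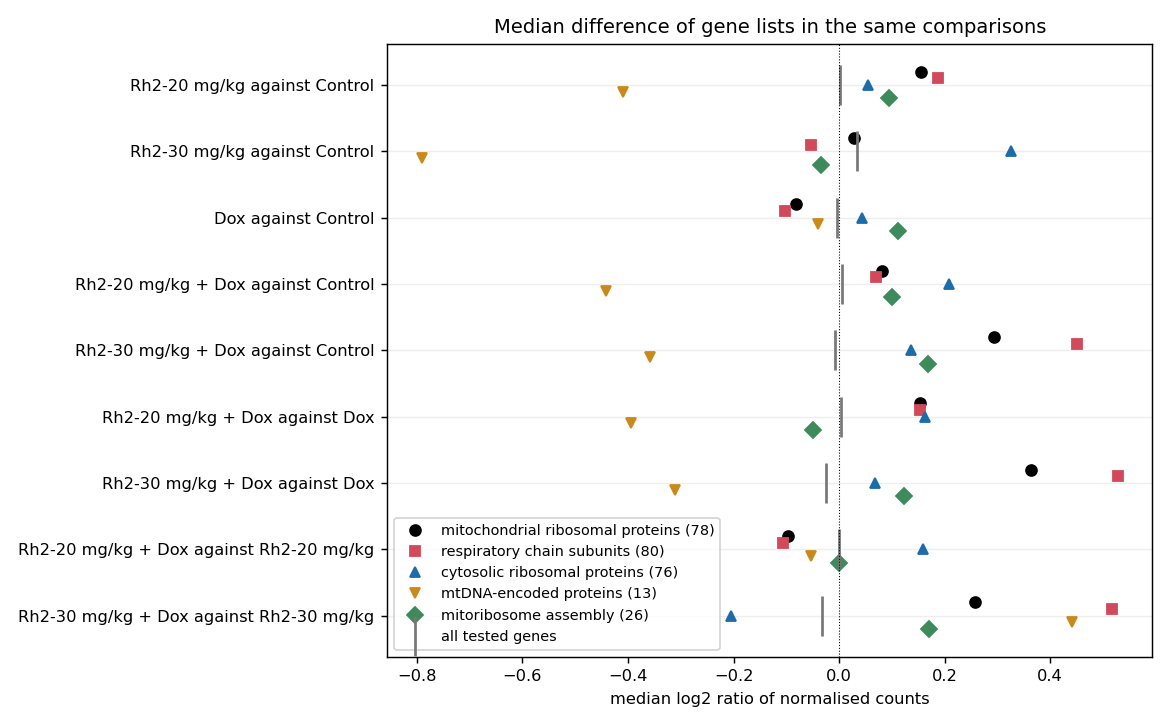
Median log2 ratio of 5 gene lists and of all tested genes in the 9 comparisons, with the number of genes per list in the key. The members (black circles) lie near the respiratory chain subunits (red squares) except in the 3 comparisons of Rh2-30 mg/kg + Dox, where the subunits are higher, and apart from the genes of mitochondrial DNA (ochre triangles), which are at -0.79 in Rh2-30 mg/kg against Control.

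Among 8 genes that copy and transcribe mitochondrial DNA, Polg2, a subunit of its polymerase, had 378, 393 and 422 normalised counts without Dox and 626, 622 and 545 with it, at Rh2 doses of 0, 20 and 30 mg/kg. Its mean log2 ratio over the Dox pairs was 0.59, and its adjusted p was 0.242 by edgeR. Among 9 regulators of nuclear genes for mitochondria, Ppargc1a, a coactivator of mitochondrial biogenesis, had 22041, 19861 and 27176 without Dox and 39681, 28592 and 37381 with it (adjusted p = 0.333 by edgeR). Ppargc1a was thus highest in Dox, the library in which 42 of the 78 members were lowest. It was next highest in Rh2-30 mg/kg + Dox, the library in which 56 members were highest. A relation between Ppargc1a and the members was not tested. Myc, a growth regulator, had 470, 693 and 824 without Dox and 315, 501 and 409 with it, and an unadjusted p under 0.05 in both tests (adjusted p = 0.428 for Dox and 0.567 for Rh2 by edgeR). Nrf1, the factor whose motif was searched above, had 3246 in Dox against 2611 in Control, and 2400 to 2830 in the other libraries. Of these 17 genes, 4 had an unadjusted p under 0.05 for Dox, against 10.1% of all genes, and 1, Myc, for Rh2, against 8.74%.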

How the data were processed

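The authors deposited 1 table with read count, FPKM and TPM values per gene and library. The read count values were whole numbers as deposited, made from trimmed reads aligned to mm10 with HISAT2 2.1.0 and summarised with StringTie 2.1.3b, as the submitters' processing notes and the study's methods name them. FPKM values deposited by the authors are per transcript length and mapped fragments, and served here for levels and as alternatives. TPM values deposited by the authors were not used. The study's methods place the hearts' RNA in 1 pool per condition.

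Genes whose counts averaged 10 or more were scaled by TMM, and log2 ratios of 2 libraries used a prior count of 0.5. Their 95% intervals are exact conditional binomial intervals. Groups of libraries were compared with edgeR's quasi-likelihood test, two-sided, adjusted by Benjamini-Hochberg over all 18328 genes, with edgeR 4.0.16 (limma 3.58.1 beneath it) under R 4.3.3, and DESeq2 1.42.0 gave alternatives. Scripts were tested on simulated data. Figures used Python 3.11.15 and matplotlib 3.10.9. Member positions, all matched by gene identifier, and promoters come from RefSeq tables of GRCm38.p6.

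The members and gene lists were chosen with earlier results of these data known. Named members were the 3 highest and 3 lowest in FPKM, up to 8 members with an unadjusted p under 0.05 in each test, the highest and lowest ratio in each comparison with Control, any past 2-fold and a list of members with known roles, and other named genes are marked as chosen after their values were seen or were among the 3 of their list with the largest mean log2 ratio over the Dox pairs. Mrpl10, Mrpl46, Mrpl51, Mrps2, Mrps5, Mrps11 and Mrpl14 fall outside that rule. Alternatives were DESeq2 size factors, total counts, a prior count of 2, FPKM plus 1 or plus 0.1, no filter on low counts, DESeq2's Wald test, Rh2 dose as a term, no Dox term and each library or pair left out. With 1 library per condition, p-values measure the spread between libraries that differ in treatment.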

Additional observations from a re-analysis of the deposited data

Results flagged for a closer look

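Of 30 named members, 3 had a library far from the others among the 4 that received Rh2, measured as the gap of the extreme library to its nearest neighbour divided by the whole range. Chance alone would mark about 1 in 20 groups of like samples this way. These 4 libraries differ in treatment, and some members were named for extreme ratios, so that rate does not apply here. For Mrps6 this share was 0.982, with 1710 normalised counts in Rh2-30 mg/kg against 600 in Rh2-20 mg/kg, and 610 and 590 in the libraries with both drugs. Slc5a3, whose span overlaps Mrps6, was highest in the same library. For Mrpl53 the share was 0.912, set by 534 in Rh2-20 mg/kg + Dox against 501 to 504 in the others, a small difference in size. For Mrpl34 it was 0.86, set by 623 in Rh2-20 mg/kg against 558 to 567.

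The member median for Dox at an Rh2 dose of 30 mg/kg was 0.26, opposite in sign to the pairs at 0 and 20 mg/kg, which had -0.08 and -0.10. This difference between pairs was not tested, since each pair has 1 library per condition.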

How the results depend on the processing

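Log2 medians of the members kept their sign against Control and against Dox under every scaling and FPKM setting tried, except relative to the shortest genes (added after seeing the data), where Rh2-20 mg/kg + Dox against Control turned to -0.0016, and the higher Rh2 dose alone against Control to -0.11. For that dose the median of 0.03 became 0.20 with total counts, 0.15 with FPKM plus 1 and 0.17 with FPKM plus 0.1. With total counts 68 members were higher there, in place of 45. Total counts shifted the median of all tested genes by 0.17 in that comparison, and by -0.17 in Rh2-30 mg/kg + Dox against Rh2-30 mg/kg. The cause was not tested. Members lower in all 3 Dox pairs numbered 12 with total counts, 10 with FPKM plus 1 and 10 with FPKM plus 0.1, in place of 2. The share of all genes under these settings was not counted. The mean of the pair medians, 0.03, was -0.02 with total counts and with either FPKM setting, and ran from -0.09 without the pair at 30 mg/kg to 0.09 without the pair at 20 mg/kg. Members at an unadjusted p under 0.05 for Rh2 were 34 with total counts in place of 12, 20 without both Rh2-30 mg/kg libraries (added after seeing the data), and 1 to 18 with 1 library left out. For Dox they were 3, and 2 to 8 with 1 library left out, while members higher with Dox, 47, ran from 25 to 65 and were 24 without both Rh2-30 mg/kg libraries. No member passed an adjusted p of 0.05 in any of these fits. The counting interval of a member against Control reached a median of about 0.11 on the log2 scale to either side, and was wider for members with few counts.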
